A study of Arabidopsis thaliana with 10 samples.

Results

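Transcripts of Arabidopsis thaliana Col-0 leaves were followed here at 30 min after a move out of light absorbed chiefly by photosystem II (PSII light) into light absorbed chiefly by photosystem I (PSI light). The column for this time point was taken from the deposited table of ratios, and 644 genes that have a spot of their own on the filter were described, of 3261 spotted features in all. Of these 644 genes, 620 had a ratio above 0 at 30 min, and the other 24 were listed at 0 and have no value. Spots that match several genes or no gene were used only to place the centre of the column and as background.

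The plants were wild type, grown on soil under white light for 21 days in short days of 8 h light and 16 h darkness, and acclimated for 3 days to PSII light before the move to PSI light. Pools of 250 to 500 plants were used. The labels give 3 independent experiments for a time point, and the table holds 1 column for them. The opposite shift, used below as background, moved plants from PSI light to PSII light. Both shifts also have columns at 2 h, 8 h and 48 h and a column for plants in white light, whose reference is unknown. The sample labels name thylakoid membranes as the source, whereas the protocols describe total RNA of whole leaves. Because the table holds ratios and no levels, leaf markers could not be checked, and fewer cells of a type cannot be told apart from less RNA per cell.

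Since a condition has only 1 column, no p-value or interval can be given, and no difference below could be set against a spread between experiments. Values are log2 ratios minus the log2 median of their column, so that 0 is the middle feature and 1 is 2-fold above it. The median ratio of the 30 min column was 0.724 before centring. The ratio was read as 30 min of PSI light over the plants still in PSII light. The design text makes that reading likely without stating it. The column's title, PSII_vs_PSI_30min, taken literally could mean the reverse, PSII light over PSI light. Every "above" and "below" turns round if the ratio runs the other way.

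Light that favours one photosystem changes the redox state of the plastoquinone pool, the electron carrier between the photosystems. PSI light draws electrons out of the pool and PSII light feeds them in. In plants this state is known to act on the sharing of the light-harvesting antenna and on the transcription of photosynthesis genes in chloroplast and nucleus. The genes on these filters include nuclear genes for chloroplast proteins, and 30 min is the earliest time sampled.

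At 30 min of PSI light, single genes of photosynthesis lay at either end of the column. LHB1B2, which encodes a chlorophyll-binding antenna protein of photosystem II, was at 2.30 times the column median and PSBY, a small photosystem II subunit, at 2.14 times. SBPASE, which encodes sedoheptulose-bisphosphatase of the Calvin-Benson cycle, was at 0.289 times the median. PSB27, a lumenal protein of photosystem II assembly and repair, was at 0.431 times. All 4 came under 2-fold when a pseudocount of 0.432 was added to the ratios. Their log2 values were then 0.87, 0.79, −0.84 and −0.62 in the order named. That they stayed on their side of the median was set in advance, since a pseudocount keeps the order of genes that have a value.

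Most genes lay close to the centre. The quartiles of the 620 genes were −0.25 and 0.20, and 535 of them, 86.3%, were within 1.5-fold of the median. The lowest value was −1.86 and the highest 1.42. Relative to the median, 18 genes were 2-fold or more above, which is 2.9% of the genes, against 4.67% of all features. Below it by 2-fold or more were 7 genes, 1.13%, against 1.19% of all features. Before centring, no gene was 2-fold or more above a ratio of 1 (0%, against 1.03% of features) and 33 were 2-fold or more below it (5.32%, against 5.44% of features). The higher genes named here thus had deposited ratios under 2, with 1.94 as the highest. Their order in the column is the same with and without centring, since centring subtracts the same amount from every gene.

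**Figure D1:**
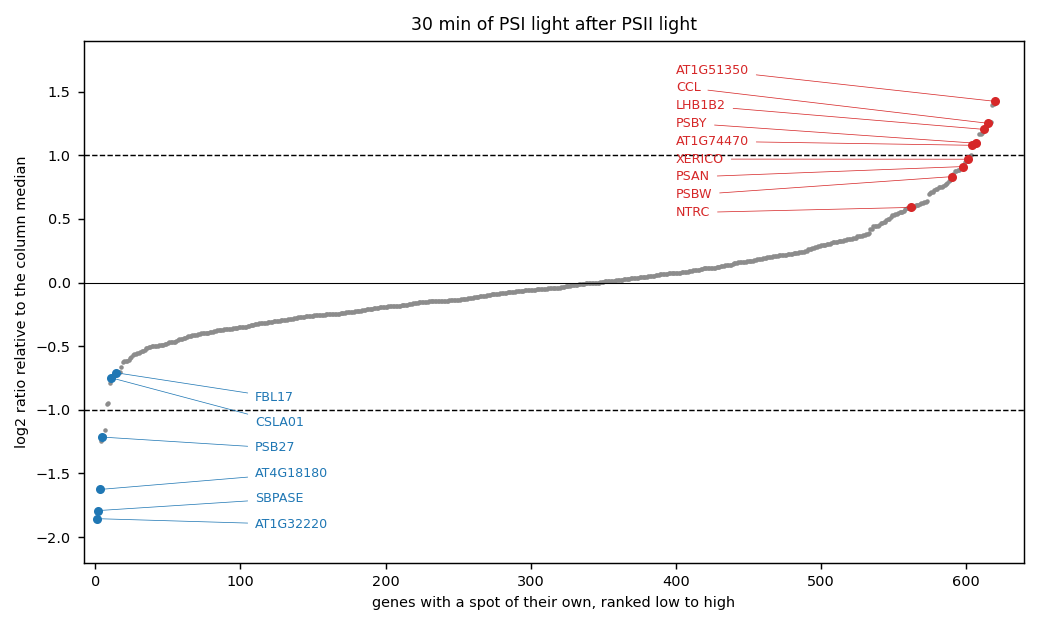
The log2 ratio relative to the column median at 30 min of PSI light is plotted for 620 genes ranked from low to high, with dashed lines at 2-fold. Most genes form a flat middle within 1.5-fold, 18 lie on or above the upper line and 7 on or below the lower line, and the labelled points are genes described in the text.

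Of the photosystem and antenna genes, 5 had been listed and all 5 had a value, of which 2 were 2-fold or more above the median and 1 was 2-fold or more below, where 4.67% and 1.19% of all features were. With so few members these counts are a description of single genes. LHB1B2 had a log2 value of 1.20 and was the 9th highest of the 620 genes. PSBY, 14th in that order, had 1.09. PSAN, the photosystem I subunit on the lumenal side where plastocyanin docks, had 0.91, and PSBW, another small photosystem II subunit, had 0.83, the 23rd and 31st highest values. These 4 genes had deposited ratios of 1.67, 1.55, 1.36 and 1.29, above 1 in each case. PSB27 had −1.21 and a deposited ratio of 0.312. LPA19, a PSB27-type protein needed for maturation of the photosystem II protein D1, had 0.11, so these related genes were far apart. The median of the list was 0.91, beside −0.05 for all 620 genes.

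The later columns of the same shift set these genes differently. They were read, like the 30 min column, as ratios to plants sampled before this shift. Part of any likeness between the columns can then come from the shared plants. LHB1B2 had 1.20, −0.08, 0.22 and −3.44 at 30 min, 2 h, 8 h and 48 h. PSBW had 0.83, −0.18, 0.89 and −2.96 at the same times. PSAN had 0.91, −0.40, −0.31 and −1.31. At 30 min all of these were above the median, and at 48 h all were 2-fold or more below it. PSBY had 1.09, 0.07, 0.84 and −0.74, and PSB27 had −1.21, −0.62, −0.16 and 1.23. The ratio direction is not stated for any column, and changes of side between times, here and below, rest on all columns running the same way. Before centring, the column medians were 0.724, 1.12, 0.687 and 1.26 at 30 min, 2 h, 8 h and 48 h. LHB1B2 and PSBW would lie above the median at all 4 times if the 2 h and 48 h columns alone ran the other way. PSAN, PSBY and PSB27 would still change side. Which way each column runs was not tested.

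**Figure D2:**
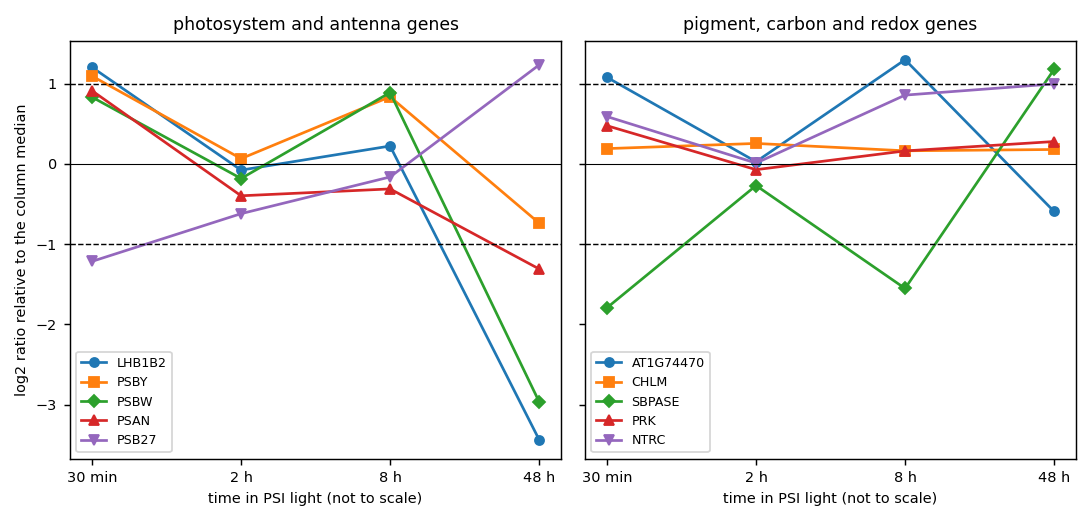
Log2 ratios relative to the column median are plotted at 4 times in PSI light (30 min, 2 h, 8 h and 48 h, not to scale), with 1 line per gene and dashed lines at 2-fold. LHB1B2, PSBY, PSBW and PSAN start between 0.83 and 1.20 and end below 0, whereas PSB27 and SBPASE start below −1 and end above 1, if all columns run the same way.

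In the Calvin-Benson cycle, the enzymes measured were SBPASE and PRK, which encodes phosphoribulokinase. Both enzymes are known to be switched on by thioredoxin in the light. SBPASE had −1.79, the second lowest of the 620 genes, with a deposited ratio of 0.209. PRK had 0.48 and a deposited ratio of 1.01. These genes therefore lay on opposite sides of the median. Over the 4 times in PSI light SBPASE had −1.79, −0.27, −1.55 and 1.18. Its spot was at 0 in the 48 h column of PSII light. Other enzymes of carbon metabolism were near the centre. PPDK, pyruvate orthophosphate dikinase, had −0.01, LrgB, a plastid membrane protein of the glycolate and glycerate exchange, had −0.14, and ATSPS4F, a sucrose-phosphate synthase, had 0.38.

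Among genes of chlorophyll and related pigments, 1 of 5 was 2-fold or more above the median and none was as far below, where 4.67% and 1.19% of all features were. AT1G74470, which encodes geranylgeranyl reductase and supplies the side chain of chlorophyll and of tocopherol, had 1.08 and a deposited ratio of 1.53. HEMA3, a glutamyl-tRNA reductase gene at the start of tetrapyrrole synthesis, had 0.58. CHLM, the magnesium-protoporphyrin methyltransferase, had 0.19, and SIRB, the ferrochelatase of sirohaem, had 0.22. Z-ISO, an isomerase of carotenoid synthesis, had −0.25. The list had a median of 0.22 and was drawn up after the values were seen.

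None of 5 redox and antioxidant genes was past 2-fold, which is no departure from the 4.67% above and 1.19% below among all features. NTRC, the NADPH-dependent thioredoxin reductase that serves chloroplast peroxiredoxins, was highest with 0.59. SRX, sulfiredoxin, which repairs overoxidised peroxiredoxin, had 0.07. AT5G58330, the NADP-dependent malate dehydrogenase that exports reducing power from the chloroplast, had −0.15. GLDH, the last enzyme of ascorbate synthesis, had −0.26, and CCS, the copper chaperone of superoxide dismutase, had −0.31. The median of these 5 was −0.15. AT2G04700 and AT3G52960 had been listed with them but are not described in the gene table, and the count and median leave them out. They had 0.61 and −0.55, the first above and the second below all of the 5.

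The chloroplast NDH complex, which returns electrons to the plastoquinone pool in cyclic flow around photosystem I, had 5 measured genes, none past 2-fold, again near the shares over all features. NdhS, the subunit at the ferredoxin-binding site, stood apart with 0.62. NdhN, PIFI, CRR41 and CRR21 lay between −0.15 and 0.01. CRR21 edits the transcript of an NDH subunit, and CRR41 is an assembly factor of the complex. Of the 7 organelle RNA and translation factors, none was past 2-fold either. ATAB2, which acts in translation of photosystem proteins, had 0.59, OTP70, a splicing factor, had 0.46 and AT5G55580, listed as mTERF9, had 0.25. PAC, OTP85 and CRR21 lay between −0.15 and 0.04. OSB1, an organellar protein that binds single-stranded DNA, had −0.39.

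Thylakoid and plastid membrane proteins were spread on either side. FZL, a dynamin-like protein of thylakoid organisation, had 0.88, and SECE1, a subunit of the thylakoid Sec translocase, had 0.48. CHL, the chloroplast lipocalin, had −0.32, and SPPA, a light-induced thylakoid protease, had −0.38. Of the amino acid and sulphur genes, AT-HF, an enzyme of histidine synthesis, had 1.08 and passed 2-fold. CBL, cystathionine beta-lyase of methionine synthesis, had 0.88 and was listed at 0 in 3 of the 10 columns. APS4, an ATP sulfurylase, had 0.34.

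The largest list was that of 12 nuclear regulators. It was drawn up after the values were seen, so its split about the median describes these genes alone. None passed 2-fold, which is no departure from the 4.67% above and 1.19% below among all features. Of the 12, 10 lay below the median, against 347 of all 620 genes, 56.0%, and 50% of all features. LAS, a regulator of axillary meristems, was lowest with −0.59. SEH1H, a nucleoporin, had −0.45 and was listed at 0 in 8 of the 10 columns. DME, a DNA demethylase, had −0.42. RAP74, chr31, SAP, IYO and SPL had −0.36, −0.25, −0.22, −0.19 and −0.15. The MADS-box genes AGL103, AGL54 and AGL26 had −0.40, −0.33 and 0.20. TCP15, which with AGL26 made up the genes above the median, had 0.09.

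Of 5 calcium and calmodulin-binding proteins, 4 lay above the median, where 44.0% of the 620 genes and 50% of all features did. This list, too, was drawn up after the values were seen, so the split describes these genes alone. None was past 2-fold, which is no departure from the 4.67% above and 1.19% below among all features. The list median was 0.38. CML30 and CML41, calmodulin-like proteins, had 0.75 and 0.38, and IQD22, with a calmodulin-binding domain, had 0.62. The other members, iqd32 and GLR2.7, had 0.19 and −0.01. Of the cell wall genes, CSLA01, a cellulose synthase-like glycosyltransferase, had −0.75, and the endoglucanase genes GH9B8, GH9B11, GH9B12 and GH9B16 lay between −0.24 and 0.23. XERICO, a RING-type protein that acts in the abscisic acid pathway, had 0.97, just under 2-fold, and DI21, known from drought-treated plants, had 0.30.

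**Figure D3:**
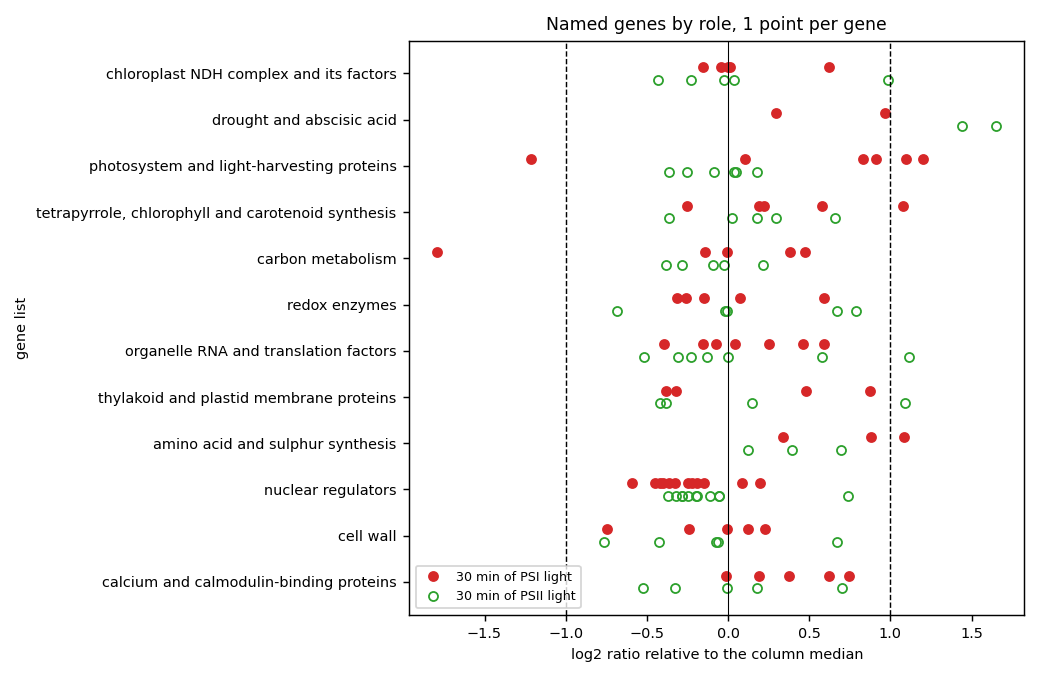
Each point is 1 gene, placed by its log2 ratio relative to the column median at 30 min of PSI light (filled) and at 30 min of PSII light (open), with dashed lines at 2-fold. In PSI light 4 photosystem and antenna genes lie between 0.83 and 1.20, whereas in PSII light the same genes lie between −0.25 and 0.05. The other members, PSB27 and LPA19, lie at −1.21 and 0.11 in PSI light and at −0.37 and 0.18 in PSII light.

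The 15 highest genes had values from 1.09 to 1.42. AT1G51350, AT3G09850 and AT3G22690 led them with 1.42, 1.40 and 1.39, and AT1G05860, AT2G30100, CCL and AT1G13990 followed with values from 1.24 to 1.26. CCL is known for a transcript under control of the circadian clock. The other 8 were AT1G62780, LHB1B2, AT4G32060, AT5G27860, AT5G11550, AT3G57120, PSBY and AT2G26110. No role is given for loci that the gene table names by identifier alone, with no descriptive synonym. The values just above 2-fold were those of AT1G17850 with 1.01 and AT1G74470 with 1.08, and those just under it were AT3G26630 with 0.98, XERICO with 0.97 and AT3G50180 with 0.95.

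Only 7 genes were 2-fold or more below the median. These were AT1G32220 with −1.86, SBPASE with −1.79, AT4G18180 with −1.63, AT2G36480 with −1.24, PSB27 with −1.21, AT4G33500 with −1.20 and AT4G09970 with −1.16. The 3 lowest thus lay between −1.86 and −1.63, farther from the median than the highest gene with 1.42. The remaining 8 of the 15 lowest lay between −0.95 and −0.71 and included CSLA01 and FBL17, an F-box protein of cell cycle control, with −0.75 and −0.71.

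How these genes stood at other times of the same shift is given gene by gene, since the columns were read as sharing the plants sampled before the shift. AT1G32220 was far from the median at 30 min alone, with −1.86, −0.19, −0.13 and −0.42 from 30 min to 48 h. AT4G33500 had −1.20, 0.01, −0.36 and −0.77. AT2G36480 went further from the median with time up to 8 h, with −1.24, −1.41, −2.54 and 0.67. AT3G09850 had 1.40, −2.39, 0.60 and −1.27, and would lie above the median at all 4 times if the 2 h and 48 h columns alone ran the other way. AT5G11550 had its highest value later, with 1.17, 0.75, 3.33 and 0.94. CCL had 1.25, −0.24, 1.44 and −0.75, and AT4G32060 had 1.18, −0.07, 1.27 and −0.64, and the same holds for both.

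**Figure D4:**
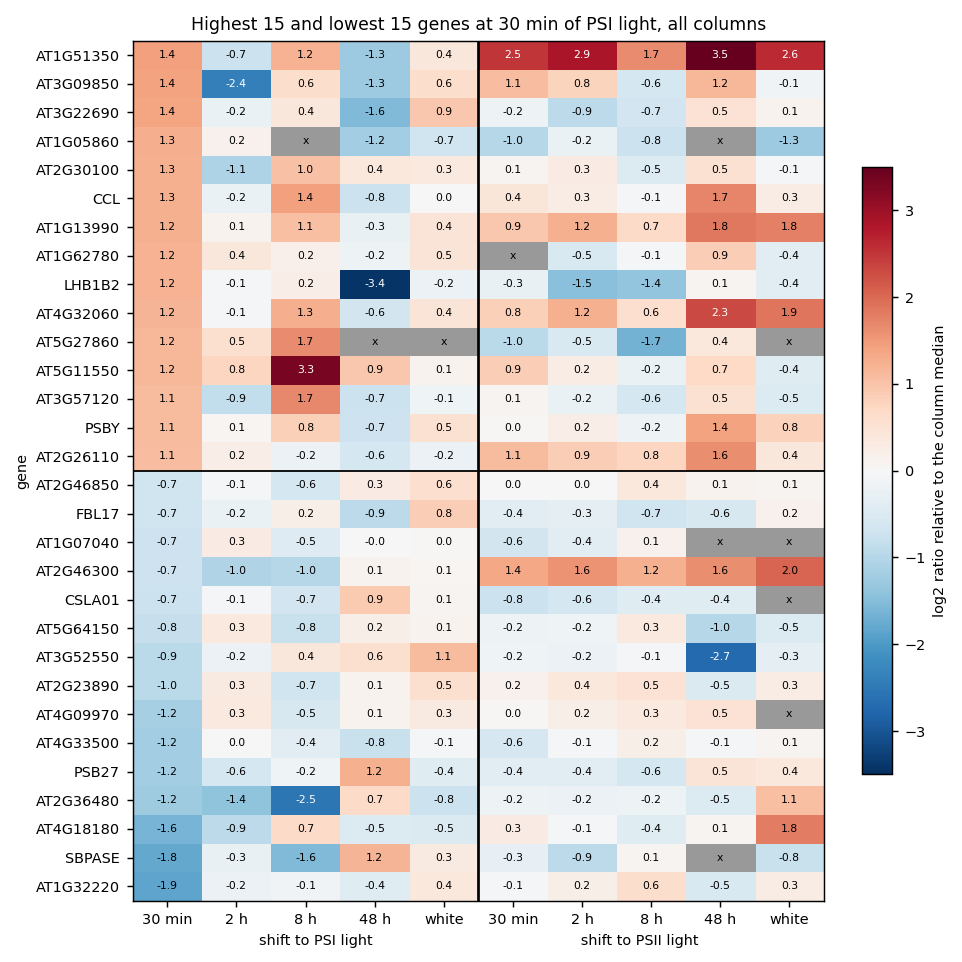
Colours and numbers give the log2 ratio relative to the column median of the 15 highest and 15 lowest genes at 30 min of PSI light, in all 10 columns, and grey cells with an x are listed at 0. The left column holds the values that chose these genes, and the other columns show that AT1G32220 is far from the median there alone in the shift to PSI light, whereas AT2G36480 reaches −2.54 at 8 h.

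Whether a gene stood alike after the opposite move was taken from the column for 30 min of PSII light. That column was read as set against plants from a different acclimation. Among 612 genes with a value in both columns, 17 lay at least 2-fold above the median in PSI light and 17 in PSII light. Counted over all that had a value at 30 min of PSII light, 2.9% of genes and 3.77% of features were that far above there, and 1.61% of genes and 1.71% of features that far below. They had 3 in common, AT1G51350, AT3G09850 and AT2G26110, which is 17.6% of each list, beside 2.78% of all 612 genes above in PSII light. AT1G51350 had 1.42 in PSI light and 2.51 in PSII light, AT3G09850 had 1.40 and 1.09, and AT2G26110 had 1.09 and 1.12. No gene was 2-fold or more below the median in both columns, among 7 in PSI light and 8 in PSII light. Across the 612 genes Pearson's r was 0.24 and Spearman's rho 0.19, given as a description because genes share their array column and are not replicates.

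Of the 6 photosystem genes, counting LPA19, 4 had higher values in PSI light than in PSII light and 2 had lower ones. The share of all genes that were higher in PSI light was not worked out, so this split describes single genes. The differences could not be tested. LHB1B2 had 1.20 in PSI light and −0.25 in PSII light, PSAN 0.91 and −0.08, PSBY 1.09 and 0.05, and PSBW 0.83 and 0.04. PSB27 had −1.21 in PSI light and −0.37 in PSII light, and LPA19 had 0.11 and 0.18. The genes with the largest difference, PSI light minus PSII light, were AT1G05860 with 2.27, AT5G27860 with 2.12, AT1G07460 with 1.71, AT1G50000 with 1.66 and AT2G38950 with 1.59. AT5G27860 had 1.17 in PSI light and −0.95 in PSII light. The genes with the lowest difference were AT2G46300 with −2.10, AT4G18180 with −1.91, AT1G32220 with −1.80, AT4G16410 with −1.69 and AT1G35510 with −1.62. AT2G46300 had −0.74 in PSI light and 1.36 in PSII light, and AT4G16410 had −0.37 and 1.32.

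**Figure D5:**
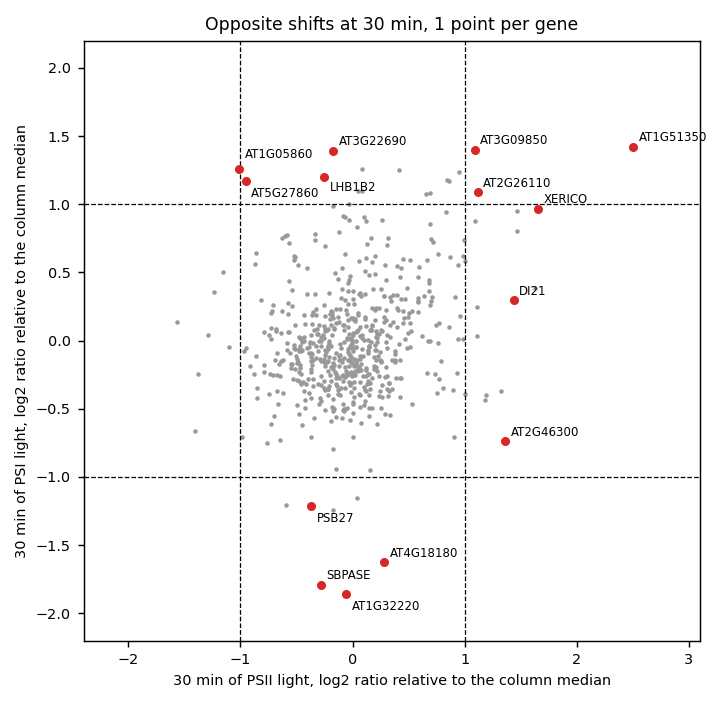
Each of 612 points is a gene, with its log2 ratio relative to the column median at 30 min of PSI light on the vertical axis and at 30 min of PSII light on the horizontal axis, and dashed lines at 2-fold. AT1G51350, AT3G09850 and AT2G26110 lie in the upper right corner, AT1G05860 lies in the upper left corner, and SBPASE, AT1G32220 and AT4G18180 lie low near the middle of the horizontal axis.

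Signals behind the ratios are not in the table, so listings at 0 are the only sign of weak spots. A value of 0 in at least 1 other column was found for 3 of the 18 genes 2-fold or more above the median, 2 of the 7 below and 64 of the other 595, that is 16.7%, 28.6% and 10.8%. The 3 were AT5G27860, AT1G05860 and AT1G62780, and the 2 were SBPASE and AT4G09970. Its part in these values was not tested. Of the 24 genes listed at 0 at 30 min of PSI light, 3 were at 0 in all 10 columns, and 5 had a value in at least 8 other columns. GLX2-1, a glyoxalase, and AT4G13220 had a value in every other column, and the remaining 3 were AT2G46910, AT5G24690 and AT4G05030.

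Genes next to each other on a chromosome were compared where both had a spot of their own. There were 10 such pairs with values at 30 min of PSI light, and the members of a pair differed by a median of 0.23. No such difference was worked out for genes that are not neighbours, so whether neighbours are more alike cannot be read from it. In 1 pair a gene passed 2-fold, AT2G26110 with 1.09 beside AT2G26100 with 0.62.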

How the data were processed

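The authors' deposited values are linear ratios per spot, from nylon filters with 3292 gene-sequence tags hybridised to radioactively labelled cDNA, per the labels' protocols. The sources used here do not give the signals, the background correction, the scaling or the way 3 experiments became 1 column. The table has 3262 spots, of which 645 match exactly 1 gene, 829 several and 1788 none in the platform annotation. The gene table of assembly TAIR10.1 held 643 of the 645 identifiers, and the other 2 kept their annotated name. No build is named in the files, and coordinates were left out.

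Exact zeros were treated as missing, log2 was taken, the gene with 2 spots was averaged, and each column's median over 3261 features was subtracted (Python 3.11.15, pandas 2.3.3). A feature was counted at 2-fold or more. Centring and counting were first checked on simulated ratios with known changes. No test across experiments was possible with 1 column per condition, and the number of arrays limits the precision.

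The members and lists were chosen with earlier results of these data known. Named were the 15 highest and 15 lowest genes, the members of 7 lists and of 10 lists drawn up after the values were seen, the 5 largest and 5 smallest differences from 30 min of PSII light, and genes at 0 with values in at least 8 other columns. Outside that rule, AT2G26100, AT3G50180, AT3G26630 and AT1G17850 were named after their values were seen. Also outside it were AT2G04700, AT3G52960 and Cpn60beta4, the last a match beyond the 4 planned for each keyword of the search below. The 7 lists covered photosystems, the Calvin-Benson cycle, chlorophyll synthesis, thioredoxin, peroxide and superoxide defence, the NDH complex, and drought with abscisic acid. The wider lists used above for pigments, carbon metabolism, redox enzymes and the remaining roles were among the 10. A planned motif search in promoters was not run. A search of gene names by 10 keywords matched 5 genes for oxidoreductases, 5 for proteases and chaperones and 2 for kinases, and no gene for the other 7. None was past 2-fold, near the 4.67% above and 1.19% below among all features. The matched genes not given above were TPP2 with 0.91, Cpn60beta3 with 0.17, ETFQO with 0.12 and Cpn60beta4 with −0.13. Alternatives are given in the closing section.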

Additional observations from a re-analysis of the deposited data

Results flagged for a closer look

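AT1G05860 lay 2-fold or more above the median at 30 min of PSI light and 2-fold or more below it at 30 min of PSII light, with 1.26 and −1.01, a difference of 2.27 on the log2 scale. It was the only gene with a spot of its own for which this held among the 612 compared. That is 5.88% of the 17 genes above in PSI light, beside 1.31% of all 612 genes 2-fold or more below in PSII light. AT1G05860 was listed at 0 in 2 of the 10 columns. The difference was not tested, since each shift has 1 column.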

How the results depend on the processing

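As deposited, 32 features were higher and 169 lower, against 145 and 37 relative to the median, and for genes with a spot of their own 0 and 33, against 18 and 7. The higher share of calls over all features was 15.9% as deposited and 79.7% after centring. Quantile normalization gave 89 features and 14 genes below, with a higher share of 63.8% over features. At 1.5-fold there were 393 features above and 137 below, and 61 and 24 genes. At 3-fold there were 18 and 13 features, and 0 and 3 genes. A pseudocount of 0.432, which brings zeros back as low values, gave 48 features above and 155 below, and 3 and 24 genes, with a higher share of 23.6% over features. With values in all 10 columns required, 21 features were below. All other feature and gene counts stayed within 1.5 times. The 15 highest genes were the same as deposited, after quantile normalization, with the pseudocount and with the centre taken over the 620 genes with a spot of their own, and 12 of them had values in all 10 columns. The 15 lowest were the same except with the pseudocount, where genes at 0 took their place, and with values in all 10 columns, where 11 were shared. None of these settings can change the order of genes that have a value. The sameness of both ends was therefore set in advance and does not show how firm they are. Of 464 recomputed values of named genes, the 96 as deposited and the 96 with the gene-based centre shifted by constants under 1.5-fold. A further 80, with values in all 10 columns required, were unchanged by construction, so none of these could count as moved. Among all 464 values, 6 moved by over 1.5-fold, all with the pseudocount. No gene past 2-fold changed side, and none could, since these settings keep the order of genes and shift the centre too little. The 6 were AT1G32220 with −0.86, SBPASE with −0.84, AT4G18180 with −0.78, AT2G36480 with −0.63, PSB27 with −0.62 and AT4G33500 with −0.62. With the pseudocount all 7 genes below and 15 of the 18 above came under 2-fold, LHB1B2, PSBY and AT1G74470 among them, and AT1G51350, AT3G22690 and AT3G09850 stayed above it. As deposited all 18 above came under 2-fold and the 7 below stayed past it. None of 72 recomputed list values, 12 of them means in place of medians, moved by over 1.5-fold. Those as deposited and those with the gene-based centre could not, since they shift by constants under that limit. A filter on low signal was not run because ratios hold no levels. No paired analysis was possible because each condition has 1 column and no replicate number is shared. Depth cannot be stated, since signal over background is unknown.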
